A study of Homo sapiens with 6 samples.

Results

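The genes described here are 54 genes of DNA replication, chosen by symbol from a written list out of the 40173 genes in the deposited table, and all 54 were among the 19987 genes with enough counts to be tested. The list covers the machinery from the marking of origins to the joining of DNA strands, together with the enzymes that supply deoxynucleotides and the regulators that start S phase. RNA was sequenced from HCT116, a human colorectal cancer cell line, at passage 15-20 and wild type per the labels, in 2 groups of 3 libraries. MOCK cells were infected with a control lentivirus, and CYGB cells with a lentivirus that carried the coding region of CYGB fused to a FLAG tag. CYGB encodes cytoglobin, a haem protein of the globin family that binds oxygen. Both groups shared the puromycin selection that followed infection, and only 1 cell line was sequenced. For the sequencing the study describes 3 replicate samples per group, each with its own library. It does not say that each came from a separate infection, so p-values measure the spread between these libraries. The comparison of CYGB with MOCK asks whether the transcripts of the replication machinery differed when CYGB was overexpressed.

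Replication starts from origins that are licensed in G1, when the origin recognition complex, CDC6 and CDT1 load the ring-shaped MCM2-7 helicase onto DNA. In S phase the kinases DBF4-CDC7 and cyclin E-CDK2 help to convert the loaded ring into an active helicase with CDC45 and the GINS complex. Polymerase alpha-primase then lays down primers, replication factor C loads the PCNA clamp, and polymerases delta and epsilon copy the strands. Many of these genes are transcribed under E2F factors, which bind short GC-rich sites next to the start of transcription, and their RNA is abundant in cycling tumour cells.

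To show what these genes share in sequence, the promoter windows of RefSeq on GRCh38.p14, 250 bases before to 50 bases after the start, were searched on both strands for the E2F site TTTNNCGC with each N being C or G, that is TTTCCCGC, TTTCGCGC, TTTGCCGC or TTTGGCGC. Of the 54 genes, 46 had a window, and 24 of these (52.2%) held at least 1 match. Among all 11754 tested genes with a window the share was 6.31%. Counted per window, 24 of the 58 windows of the list (41.4%) held a match, beside 3.31% of all 35116 windows. The matches were spread over the roles, with all 3 licensing factors (CDC6, CDT1 and GMNN), all 4 MCM2-7 genes with a window (MCM2, MCM3, MCM6 and MCM7) and 1 of the 6 origin recognition genes (ORC3). In 8 genes the stretch around the first match lay before the RefSeq start and outside every annotated GENCODE exon, and 4 of these are printed as examples from the helicase, the clamp and the priming polymerase. The match is in capitals, with 20 bases on each side in lower case. In MCM6 a pair of matches on opposite strands overlapped within the capitals, and a further such pair lay nearer to the start. MCM6 and MCM3 encode helicase subunits, PCNA the sliding clamp and POLA1 the catalytic subunit of polymerase alpha.
MCM6 (chr2:135876564-135876615, minus strand): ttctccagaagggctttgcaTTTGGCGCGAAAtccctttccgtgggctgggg
MCM3 (chr6:52284889-52284936, minus strand): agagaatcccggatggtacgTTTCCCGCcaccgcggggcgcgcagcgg
PCNA (chr20:5126654-5126701, minus strand): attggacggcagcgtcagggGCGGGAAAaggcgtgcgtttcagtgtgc
POLA1 (chrX:24693761-24693808, plus strand): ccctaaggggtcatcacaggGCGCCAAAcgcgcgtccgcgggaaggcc
The first match began 152 bases before the RefSeq start in MCM6, 174 bases before it in MCM3, 59 bases before it in PCNA and 137 bases before it in POLA1. The genes with a match had a median log2 fold change of 0.05 between CYGB and MOCK (n = 24), and those with a window and no match 0.09 (n = 22).

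The 6 libraries held 58138393 to 66035266 counts, of which 18.6 to 19.5% fell on assembled transcripts without a gene and were set aside. The transgene was counted 10, 28 and 34 times in MOCK 1 to 3 and 34935, 27681 and 32333 times in CYGB 1 to 3, which matched the labels. Of the 8 colon epithelial markers checked, KRT8 stood at 1421 to 1972 CPM (counts scaled to library size) and EPCAM at 159 to 341 CPM, with CYGB 3 the lowest library for EPCAM, while KRT20, VIL1 and CLDN4 were at or below 1.65 CPM in each library. Of the 7 fibroblast markers, COL1A1 stood at 44.3 to 53.7 CPM and the others reached at most 1.14 CPM. Of the 5 leukocyte markers, CD68 stood at 9.89 to 25.2 CPM, with CYGB 1 the lowest library, and the others, PTPRC among them, reached at most 0.59 CPM.

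No replication gene passed the test between CYGB and MOCK cells. None of the 54 passed the threshold named in the methods, a p of at most 0.01 with a ratio of at least 2 or at most 0.5, which 0.565% of all genes tested passed, and none had a Benjamini-Hochberg adjusted p under 0.05 over all genes in edgeR's quasi-likelihood test, which 0.055% of all genes reached. Their adjusted p-values ran from 0.963 to 0.999. At an unadjusted p under 0.05, 3 of the 54 (5.56%) passed, beside 4.54% of all genes, namely POLD2, MCM2 and TK1, all higher in CYGB. DESeq2 gave 0 calls as well, beside 1.32% of all genes at the methods' threshold and 0.54% at the adjusted one, with 2 of the 54 genes at an unadjusted p under 0.05, and edgeR's exact test gave 0 calls with 0 such genes. For 47 of the 54 genes (87.0%) the 95% interval of the log2 fold change lay within -1 to 1, that is within a 2-fold change, beside 56% of all genes. For the other 7 genes a 2-fold change in at least one direction was within the interval, so it could not be told from no change with these libraries.

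The log2 fold changes were small and mostly above 0. They ran from -0.52 in POLD3 to 1.06 in MCM5 with a median of 0.08, beside -0.01 over all genes tested, and 46 of the 54 lay within -0.3 to 0.3. There were 42 genes with a value above 0 and 12 below, a share of 77.8% beside 48.8% of all genes. With each library left out in turn, 35 to 44 genes lay above 0, the 35 without CYGB 1. In 10 genes (18.5%) all CYGB libraries lay above all MOCK libraries, beside 5.72% of all genes tested, and these were CDC6, LIG1, GINS2, GINS3, MCM2, MCM7, MCM10, POLD2, RPA2 and TK1. No gene of the list had all CYGB libraries below all MOCK libraries, beside 5.31% of all genes. The genes of the list are transcribed together through the cell cycle and are not independent of each other, and no test was made over them as a set.

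**Figure D1:**
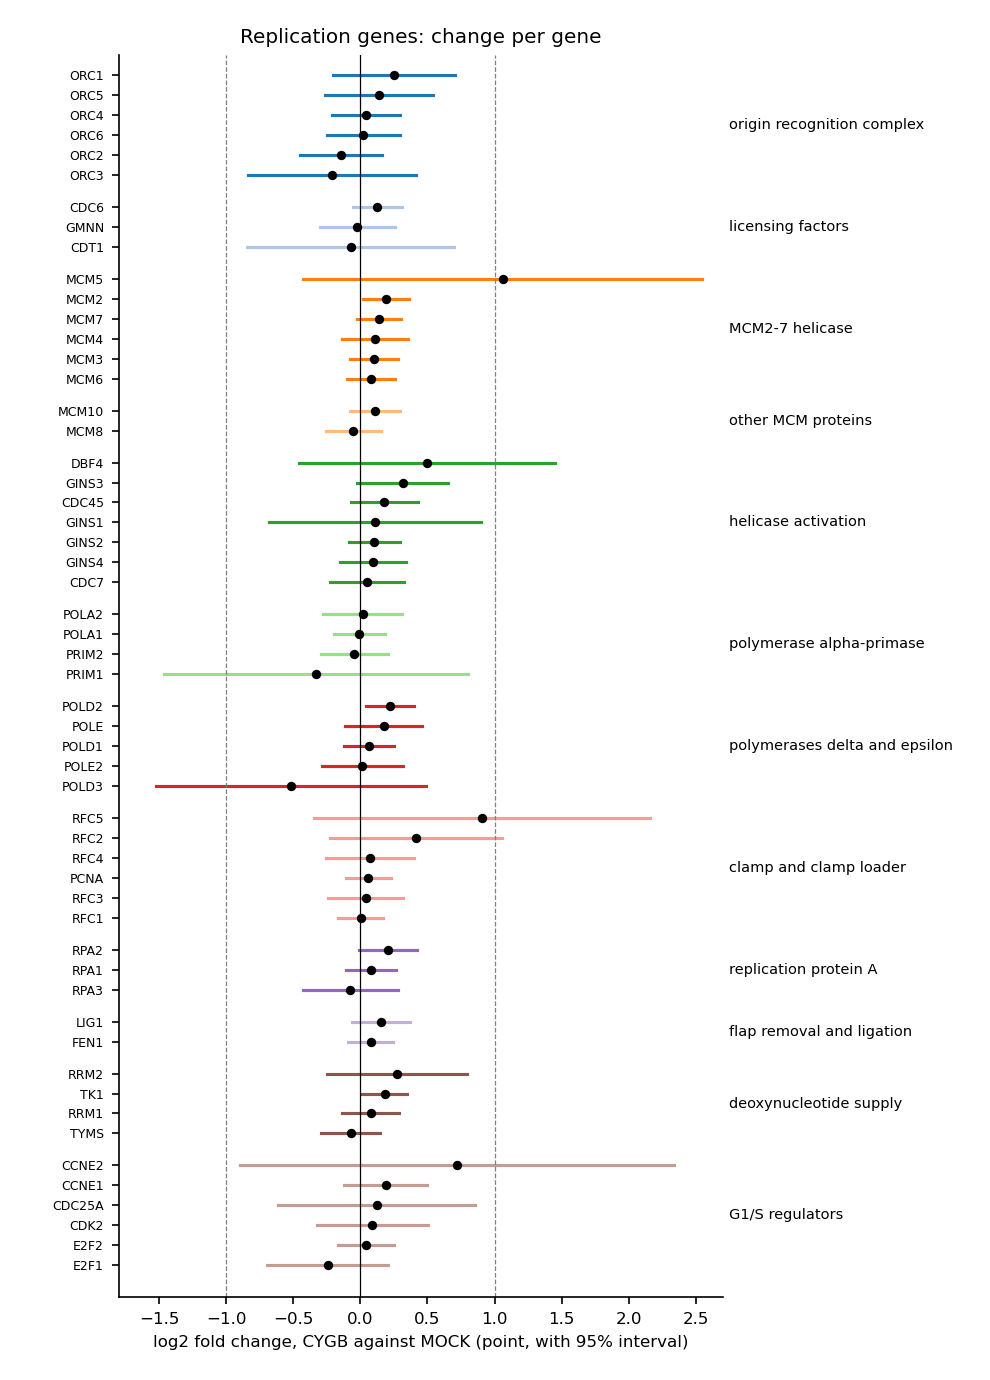
Log2 fold change of CYGB against MOCK for each of the 54 genes (point) with its 95% interval from edgeR (line), grouped and coloured by role, with dashed lines at -1 and 1. Most points lie just right of 0 with short intervals, and the intervals that reach past -1 or 1 belong to MCM5, CCNE2, RFC5, PRIM1, POLD3, DBF4 and RFC2.

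Summed over the 54 genes, the level was 7140.3, 6994 and 7237 CPM in MOCK 1 to 3 and 7749.9, 7734 and 7737 CPM in CYGB 1 to 3. All CYGB libraries lay above all MOCK libraries, with means of 7740 ± 8.40 and 7124 ± 122 CPM (SD, n = 3 each) and a ratio of 1.09. The ratio was 1.08 without MCM5, whose counts stood apart in 1 library. Without MCM5 the sums were 7075, 6948 and 7188 CPM in MOCK 1 to 3 and 7682, 7691 and 7514 CPM in CYGB 1 to 3. The close agreement of the full CYGB sums therefore depended on MCM5 in CYGB 3. Over the 45 genes that varied by at most 2-fold among the 6 libraries the ratio was also 1.08. Both of these sums were chosen after the values had been seen. By role, the summed ratio of CYGB to MOCK was highest for the MCM2-7 helicase (1.12), deoxynucleotide supply (1.11), helicase activation (1.10) and the G1/S regulators (1.10). It was lowest for polymerase alpha-primase (0.988), and the remaining roles lay between 1.01 and 1.08. In bulk RNA, a higher share of cells in S phase and more RNA per cell cannot be told apart.

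Compared per transcript length, the levels covered a wide range. In TPM, counts scaled to transcript length and library size, averaged over the 6 libraries, TK1 was at 707, PCNA at 668, MCM7 at 385, RRM2 at 363 and TYMS at 287. These encode thymidine kinase, the sliding clamp, a helicase subunit, the small subunit of ribonucleotide reductase and thymidylate synthase. The lowest were PRIM1 at 3.91, RFC5 at 14.2, DBF4 at 14.7, POLD3 at 16.6, ORC2 at 18.5 and CDC25A at 18.5 TPM. In these counts, subunits that work in fixed proportions in a complex did not share 1 level. Among the MCM2-7 genes the mean TPM ran from 43.3 in MCM5 to 385 in MCM7, and among the clamp loader genes from 14.2 in RFC5 to 80.6 in RFC1. The counts of MCM5 and RFC5 also differed several-fold between libraries of 1 group, and counts on transcripts without a gene were set aside. Whether the counting lowered the levels of such genes was not tested.

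**Figure D2:**
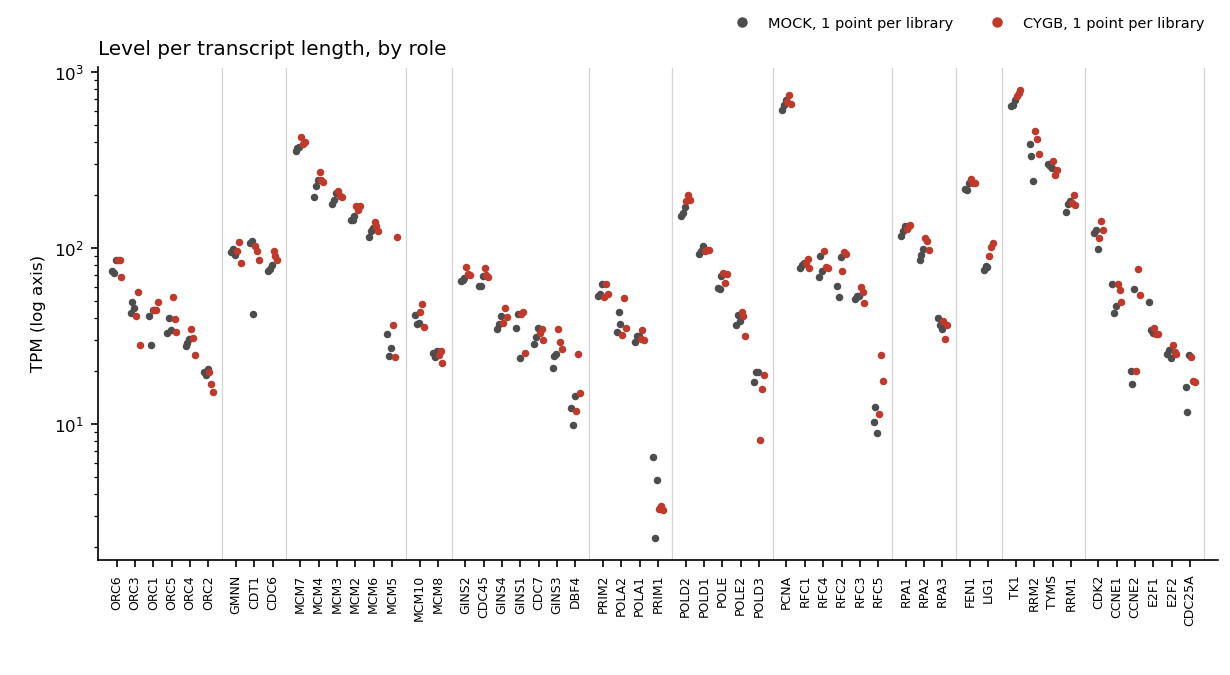
TPM of each gene in each library on a log axis, with 1 point per library, MOCK in grey and CYGB in red, and the genes grouped by role from the origin recognition complex (left) to the G1/S regulators (right). TK1 and PCNA stand highest, at means of 707 and 668 TPM, and PRIM1 lowest, at 3.91 TPM, and the libraries of both groups mostly lie on top of each other.

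The origin recognition complex marks origins and its 6 genes summed to 307, 296 and 326 CPM in MOCK 1 to 3 and 335, 327 and 285 CPM in CYGB 1 to 3, with overlapping groups. ORC6, the most abundant per length, stood at 61.4, 59.1 and 68.8 CPM in MOCK 1 to 3 and 67.5, 67.3 and 57.5 CPM in CYGB 1 to 3. ORC3 had the lowest log2 fold change of the complex, -0.21 (SE 0.26, 95% interval -0.84 to 0.41), with 52.5, 59.2 and 53.4 CPM in MOCK 1 to 3 and 46.4, 64.6 and 31.5 CPM in CYGB 1 to 3. Its CYGB values spread from 31.5 to 64.6 CPM, on both sides of the MOCK values. ORC2 stood at 38.0, 38.9 and 39.6 CPM in MOCK 1 to 3 and 40.4, 33.2 and 31.6 CPM in CYGB 1 to 3, a log2 fold change of -0.15 (SE 0.13, 95% interval -0.45 to 0.16), and its CYGB 1 library was the highest of the 6. ORC1, ORC4 and ORC5 had log2 fold changes between 0.04 and 0.25, and none of the 6 genes had groups that did not overlap.

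Among the licensing factors, CDC6, the ATPase that helps to load the helicase, stood at 182, 167 and 180.0 CPM in MOCK 1 to 3 and 203, 191 and 183 CPM in CYGB 1 to 3, with all CYGB libraries above all MOCK libraries and a log2 fold change of 0.13 (SE 0.08, 95% interval -0.06 to 0.31). GMNN encodes geminin, which blocks CDT1 after origins have fired, and it stood at 58.7, 58.8 and 54.9 CPM in MOCK 1 to 3 and 55.3, 63.8 and 50.7 CPM in CYGB 1 to 3. The difference for GMNN was -0.02 (SE 0.11, 95% interval -0.30 to 0.26) on the log2 scale. CDT1, the loading factor that geminin binds, varied more among the MOCK libraries, at 176, 122 and 69.4 CPM in MOCK 1 to 3 and 115, 113 and 122 CPM in CYGB 1 to 3. The CYGB values of CDT1 all lay between the lowest and the highest MOCK value.

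All 6 MCM2-7 genes had log2 fold changes above 0, and 5 of them had intervals within -1 to 1. MCM2, which passed at the unadjusted threshold alone, stood at 267, 265 and 272 CPM in MOCK 1 to 3 and 311, 284 and 321 CPM in CYGB 1 to 3, a log2 fold change of 0.19 (SE 0.07, 95% interval 0.02 to 0.36) with an adjusted p of 0.963 in edgeR. MCM7, the most abundant of the ring, stood at 532, 545 and 544 CPM in MOCK 1 to 3 and 622, 557 and 605 CPM in CYGB 1 to 3, with groups that did not overlap and a log2 fold change of 0.14 (SE 0.07, 95% interval -0.02 to 0.30). MCM3, MCM4 and MCM6 lay at log2 fold changes of 0.10, 0.11 and 0.08, with groups that overlapped. MCM5 had the largest log2 fold change of the list, 1.06 (SE 0.61, 95% interval -0.43 to 2.55), and it rested on 1 library. Its values were 65.1, 46.1 and 48.8 CPM in MOCK 1 to 3 and 67.6, 42.7 and 223 CPM in CYGB 1 to 3, so that CYGB 1 and CYGB 2 lay next to the MOCK range and CYGB 3 stood apart. CYGB 3 was also the library with the lowest EPCAM, and whether this bears on MCM5 was not tested. Without CYGB 3 the log2 fold change of MCM5 was 0.05. In the MCM2-7 sum, CYGB 2 lay at 1852 CPM, below MOCK 3 at 1892 CPM. Of the other MCM proteins, MCM10, which acts in the start of replication, stood at 66.6, 67.5 and 70.6 CPM in MOCK 1 to 3 and 74.4, 74.2 and 72.0 CPM in CYGB 1 to 3, and MCM8, which acts in DNA repair, had a log2 fold change of -0.05.

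All 7 genes of helicase activation had log2 fold changes above 0, but CDC7 lay below 0 without MOCK 1, and GINS1 without MOCK 3, CYGB 1 or CYGB 2. GINS2, the most abundant of them per length, stood at 89.4, 88.8 and 90.5 CPM in MOCK 1 to 3 and 102, 91.1 and 95.5 CPM in CYGB 1 to 3, with CYGB above MOCK in all libraries by a margin of less than 1 CPM between CYGB 2 and MOCK 3. GINS3, another GINS subunit, stood at 23.7, 27.3 and 27.7 CPM in MOCK 1 to 3 and 37.3, 31.0 and 29.5 CPM in CYGB 1 to 3, a log2 fold change of 0.31 (SE 0.14, 95% interval -0.02 to 0.65). Its groups did not overlap. DBF4, the activating subunit of the CDC7 kinase, had 12.6, 10.7 and 16.1 CPM in MOCK 1 to 3 and 9.98, 28.5 and 17.2 CPM in CYGB 1 to 3. CYGB 1 was the lowest library of DBF4 and CYGB 2 the highest, and the log2 fold change of 0.49 (SE 0.39, 95% interval -0.46 to 1.45) became 0.04 without CYGB 2. CDC45, GINS1, GINS4 and CDC7 had log2 fold changes between 0.05 and 0.18.

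The genes of polymerase alpha-primase showed the lowest ratio of the roles. PRIM2, the large primase subunit, stood at 64.6, 64.3 and 73.2 CPM in MOCK 1 to 3 and 61.1, 70.5 and 64.4 CPM in CYGB 1 to 3, a log2 fold change of -0.05 (SE 0.10, 95% interval -0.29 to 0.20). PRIM1, the catalytic primase subunit, was listed with few counts, at 3.18, 0.890 and 1.46 CPM in MOCK 1 to 3 and 1.41, 1.44 and 1.54 CPM in CYGB 1 to 3. Its highest value was in MOCK 1 and its lowest in MOCK 2, and the log2 fold change of -0.33 (SE 0.46, 95% interval -1.46 to 0.80) became 0.32 without MOCK 1. POLA1 and POLA2 had log2 fold changes of -0.01 and 0.02.

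Among the genes of polymerases delta and epsilon, POLD2, the small subunit that binds the catalytic subunit of polymerase delta, had the smallest p of the list. It stood at 122, 124 and 132 CPM in MOCK 1 to 3 and 141, 153 and 147 CPM in CYGB 1 to 3, with means of 126 ± 5.59 CPM in MOCK and 147 ± 5.67 CPM in CYGB (SD, n = 3 each). The groups of POLD2 did not overlap, its log2 fold change was 0.22 (SE 0.07, 95% interval 0.04 to 0.40), and its p of 0.0234 in edgeR became 0.963 after adjustment over all genes. POLD3, a further polymerase delta subunit, had the lowest log2 fold change of the list, -0.52 (SE 0.41, 95% interval -1.53 to 0.49), with 30.5, 32.2 and 33.1 CPM in MOCK 1 to 3 and 9.70, 24.6 and 32.5 CPM in CYGB 1 to 3. The MOCK values of POLD3 lay close together, CYGB 3 lay among them, and CYGB 1 stood far below. Without CYGB 1 its log2 fold change was -0.16. POLD1, POLE and POLE2 had log2 fold changes of 0.07, 0.17 and 0.02.

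PCNA, the clamp that holds the polymerases on DNA, stood at 431, 449.7 and 474 CPM in MOCK 1 to 3 and 457, 491 and 464 CPM in CYGB 1 to 3, a log2 fold change of 0.06 (SE 0.07, 95% interval -0.11 to 0.23). Its groups overlapped. RFC5, a small clamp loader subunit, had 6.35, 9.82 and 4.78 CPM in MOCK 1 to 3 and 6.08, 22.1 and 11.1 CPM in CYGB 1 to 3, a log2 fold change of 0.91 (SE 0.51, 95% interval -0.35 to 2.16). CYGB 1 lay within the MOCK range and CYGB 2 stood highest, and without CYGB 2 the log2 fold change of RFC5 was 0.30. RFC2 had 45.4, 38.4 and 72.8 CPM in MOCK 1 to 3 and 57.4, 75.7 and 76.3 CPM in CYGB 1 to 3, where MOCK 3 and the CYGB libraries lay above MOCK 1 and MOCK 2, with a log2 fold change of 0.42 (SE 0.26, 95% interval -0.22 to 1.06). RFC1, RFC3 and RFC4 lay within 0.00 to 0.07.

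Replication protein A coats single-stranded DNA. RPA1, its large subunit, stood at 253, 265 and 281 CPM in MOCK 1 to 3 and 269, 277 and 299 CPM in CYGB 1 to 3, a log2 fold change of 0.08 (SE 0.08, 95% interval -0.10 to 0.26). RPA2 had a log2 fold change of 0.21 (SE 0.09, 95% interval -0.01 to 0.42), with groups that did not overlap, and RPA3 one of -0.07 (SE 0.15, 95% interval -0.43 to 0.28), with 39.2, 34.8 and 33.5 CPM in MOCK 1 to 3 and 37.8, 28.5 and 35.8 CPM in CYGB 1 to 3. FEN1, the nuclease that removes flaps at the ends of Okazaki fragments, stood at 261, 249.6 and 272 CPM in MOCK 1 to 3 and 285, 262 and 277 CPM in CYGB 1 to 3. LIG1, the ligase that seals them, stood at 129.6, 135 and 127 CPM in MOCK 1 to 3 and 140.3, 136 and 161 CPM in CYGB 1 to 3, with CYGB above MOCK in all libraries and a log2 fold change of 0.16 (SE 0.09, 95% interval -0.06 to 0.37). The groups of FEN1 overlapped, at a log2 fold change of 0.08 (SE 0.07, 95% interval -0.09 to 0.24).

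In deoxynucleotide supply, TK1 stood at 539.9, 539 and 567 CPM in MOCK 1 to 3 and 598, 603 and 665 CPM in CYGB 1 to 3. Its groups did not overlap, its log2 fold change was 0.18 (SE 0.07, 95% interval 0.01 to 0.35), and its p of 0.0399 in edgeR became 0.963 after adjustment. RRM2 ran from 363 to 656 CPM and RRM1 from 248 to 297 CPM with overlapping groups, and TYMS was the gene of this role with a log2 fold change below 0 (-0.07). Among the G1/S regulators, CDK2, the kinase of cyclin E, stood at 150.1, 152 and 111 CPM in MOCK 1 to 3 and 121, 166 and 153 CPM in CYGB 1 to 3, a log2 fold change of 0.09 (SE 0.17, 95% interval -0.33 to 0.50). E2F1, an activator of S phase genes, had 64.4, 43.9 and 42.0 CPM in MOCK 1 to 3 and 44.6, 40.1 and 42.4 CPM in CYGB 1 to 3, a log2 fold change of -0.24 (SE 0.19, 95% interval -0.69 to 0.21). MOCK 1 was the highest library of E2F1, whose log2 fold change was -0.02 when MOCK 1 was left out. CCNE2, one of the cyclin E genes, had 24.3, 19.4 and 77.4 CPM in MOCK 1 to 3 and 28.7, 97.1 and 73.8 CPM in CYGB 1 to 3, a log2 fold change of 0.72 (SE 0.66, 95% interval -0.90 to 2.33). Its libraries fell into low and high values in both groups, with MOCK 1, MOCK 2 and CYGB 1 low. The log2 fold change of CCNE2 ran from 0.34 without CYGB 2 to 1.60 without MOCK 3. CCNE1, the other cyclin E gene, had a log2 fold change of 0.19, and those of E2F2 and CDC25A were 0.04 and 0.12.

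**Figure D3:**
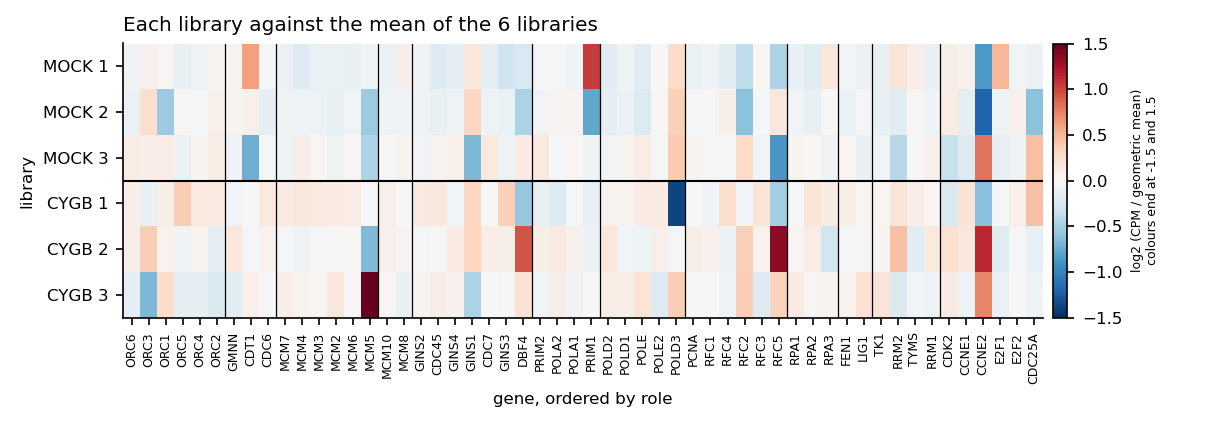
Each gene (columns, ordered by role) in each library (rows), as log2 of its CPM over its geometric mean across the 6 libraries, with red above and blue below that mean and colours ending at -1.5 and 1.5. Most columns are pale in all rows, and the strong colours sit in single libraries, such as CYGB 3 for MCM5, CYGB 1 for POLD3 and MOCK 1 for PRIM1.

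The genes differed in how far the libraries of a group lay apart. The ratio of the highest to the lowest CPM over the 6 libraries had a median of 1.26, was at most 1.5 in 39 genes and above 2 in 9. Within a group the widest were MCM5 with a ratio of 5.23, CCNE2 with 3.99, RFC5 with 3.64 and PRIM1 with 3.57. The exons of 23 of the 54 genes overlap those of another gene in GENCODE 29, among them TYMS with ENOSF1 on the opposite strand (967 bases at most) and CCNE2 with INTS8 on the opposite strand (1629 bases). The library kit does not mark strand, so reads of such pairs cannot be told apart there. Other genes overlap one on the same strand, where strand could not separate the reads either. Among them are POLD1 with AC020909.1 (133 bases at most), PRIM1 with AC117378.1 (101 bases) and NACA (33 bases), and POLA2 with AP000944.2 (444 bases).

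The deposited counts were given per transcript, so the division among the isoforms of each gene could be followed in each library. The most abundant transcript varied more than the gene sum. Its highest to lowest CPM had a median ratio of 1.59, was at most 1.5 in 26 genes, and was above 2 or had a library at 0 in 18 genes. The same transcript led in all 6 libraries for 38 genes and not for 16. In MCM4 the gene sum varied by a ratio of 1.28, while the share of ENST00000262105 was 80.2, 65.3 and 1.34% in MOCK 1 to 3 and 70.8, 65.1 and 60.6% in CYGB 1 to 3. That share was low in MOCK 3 alone. In CCNE2 the leading transcript ENST00000308108 had 712, 617 and 3869 counts in MOCK 1 to 3 and 0, 4826 and 3775 counts in CYGB 1 to 3, with 0 in CYGB 1.

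**Figure D4:**
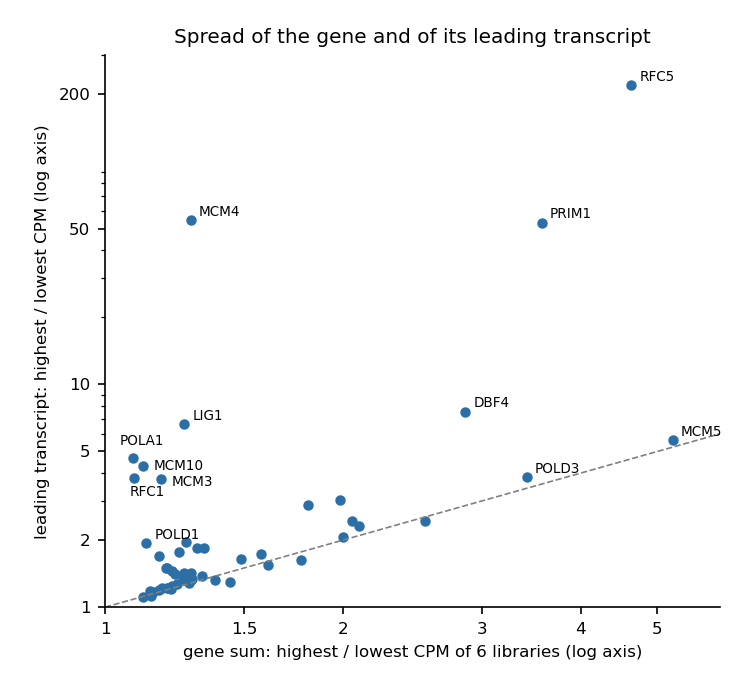
Highest over lowest CPM of the 6 libraries for the gene sum (horizontal, log axis) against the same ratio for its most abundant transcript (vertical, log axis), with 1 point per gene, a dashed line where both are equal, and CCNE2 left out because a library was at 0. MCM4, LIG1, MCM3, POLA1, RFC1 and MCM10 lie near a ratio of 1 for the gene and far above the line for the transcript.

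Of 299 tested transcripts of these genes, 2 (0.669%) passed the threshold of the methods, beside 1.02% of all transcripts tested, and none had an adjusted p under 0.05 in edgeR, beside 0.015% of all transcripts. There were 8 at an unadjusted p under 0.05, beside 3.78% of all transcripts. At the adjusted threshold DESeq2 called 2, POLD1 ENST00000613923 and LIG1 ENST00000427526, beside 1.12% of all transcripts. The exact test of edgeR called 1, POLD1 ENST00000613923, beside 0.779%. At the methods' threshold DESeq2 called 5, beside 2.26% of all transcripts. Of the 2 that passed in edgeR, the first was POLD1 ENST00000613923, which codes for the catalytic subunit of polymerase delta. It had 131, 57 and 179 counts in MOCK 1 to 3 and 1551, 1178 and 1353 counts in CYGB 1 to 3, with all CYGB libraries several-fold above MOCK, a log2 fold change of 3.45 (SE 0.50) and an adjusted p of 0.234 in edgeR. It passed the methods' threshold in all 12 alternatives run. The sum of POLD1 over its transcripts stood at 123, 119.9 and 130.4 CPM in MOCK 1 to 3 and 132, 124 and 135 CPM in CYGB 1 to 3, with overlapping groups.

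To see which sequence the POLD1 counts belonged to, transcripts were compared by their exons. ENST00000613923 differs from ENST00000595904 by 7 bases found in it alone and 4 found in the other alone, and no window of 150 bases, the read length, is found in it and in no other listed transcript of POLD1. Both carry an earlier start of an exon, which adds 78 coding bases, or 26 residues, at chr19:50408707-50408784 on the plus strand of GRCh38. The segment is shown because it separates the transcripts that hold it from those that skip it, with the sequence of GENCODE 29.
POLD1 segment: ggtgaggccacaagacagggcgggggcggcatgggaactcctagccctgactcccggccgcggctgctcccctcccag
Of the counts of the 8 tested transcripts that span it, those that hold the segment made up 21.2, 31.6 and 34.2% in MOCK 1 to 3 and 41.4, 39.9 and 38.9% in CYGB 1 to 3. All CYGB libraries lay above all MOCK libraries, at 40.1 ± 1.25% against 29.01 ± 6.87% (SD, n = 3 each). The exact two-sided permutation test over the 6 libraries gave p = 0.1, the smallest value that 3 against 3 allows. MOCK 1 was the lowest library, and the other MOCK libraries stood at 31.6 and 34.2%. The difference was smaller for the segment than for the single transcript.

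The second was LIG1 ENST00000427526, with 757, 828 and 951 counts in MOCK 1 to 3 and 1595, 3322 and 5378 counts in CYGB 1 to 3. The CYGB libraries all lay above MOCK but spread by more than 3-fold among themselves, and the log2 fold change was 2.01 (SE 0.45) with an adjusted p of 0.658 in edgeR. It passed the methods' threshold in 6 of the 12 alternatives, and in 1 of the 6 that left out a library. This transcript skips an exon of 90 coding bases, or 30 residues, at chr19:48162262-48162351 on the minus strand, and it was the single tested transcript spanning the exon without holding it. It differs from ENST00000263274 elsewhere as well.
LIG1 exon: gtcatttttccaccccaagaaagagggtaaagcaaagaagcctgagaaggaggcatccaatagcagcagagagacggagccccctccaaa
The transcripts that hold the exon made up 86.7, 86.7 and 83.8% in MOCK 1 to 3 and 71.9, 49.8 and 34.7% in CYGB 1 to 3 of the spanning counts. The groups did not overlap, at 85.7 ± 1.69% in MOCK and 52.1 ± 18.7% in CYGB (SD, n = 3 each), and the exact permutation test again gave its smallest value, p = 0.1. The MOCK libraries lay within a few points of each other, and CYGB 1 stood nearest to them. How reads were divided among transcripts is not stated in the sources used here. These groupings of POLD1 and LIG1 were chosen after the values had been seen. The share of the LIG1 exon rests on the called transcript itself, and the POLD1 share includes the called one. Their permutation tests therefore add no support to these calls.

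Elsewhere the division moved between transcripts of nearly the same sequence. In MCM3, ENST00000616552 and ENST00000596288 differ by 44 bases found in the first alone and 5 in the second alone. Together they had 10980, 14180 and 14416 counts in MOCK 1 to 3 and 15878, 14654 and 15508 in CYGB 1 to 3, while the first made up 4.399, 11.1 and 11.9% of these in MOCK and 9.61, 64.5 and 74.6% in CYGB. CYGB 1 stood with MOCK and the other CYGB libraries apart. In POLA1, ENST00000379068 holds 46 bases that ENST00000379059 lacks, and it made up 39.6, 20.6 and 28.6% of the pair in MOCK and 100, 20.0 and 100% in CYGB. The pair of POLA1 summed to 3820 to 4587 counts. These 2 pairs were also chosen after their values had been seen.

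**Figure D5:**
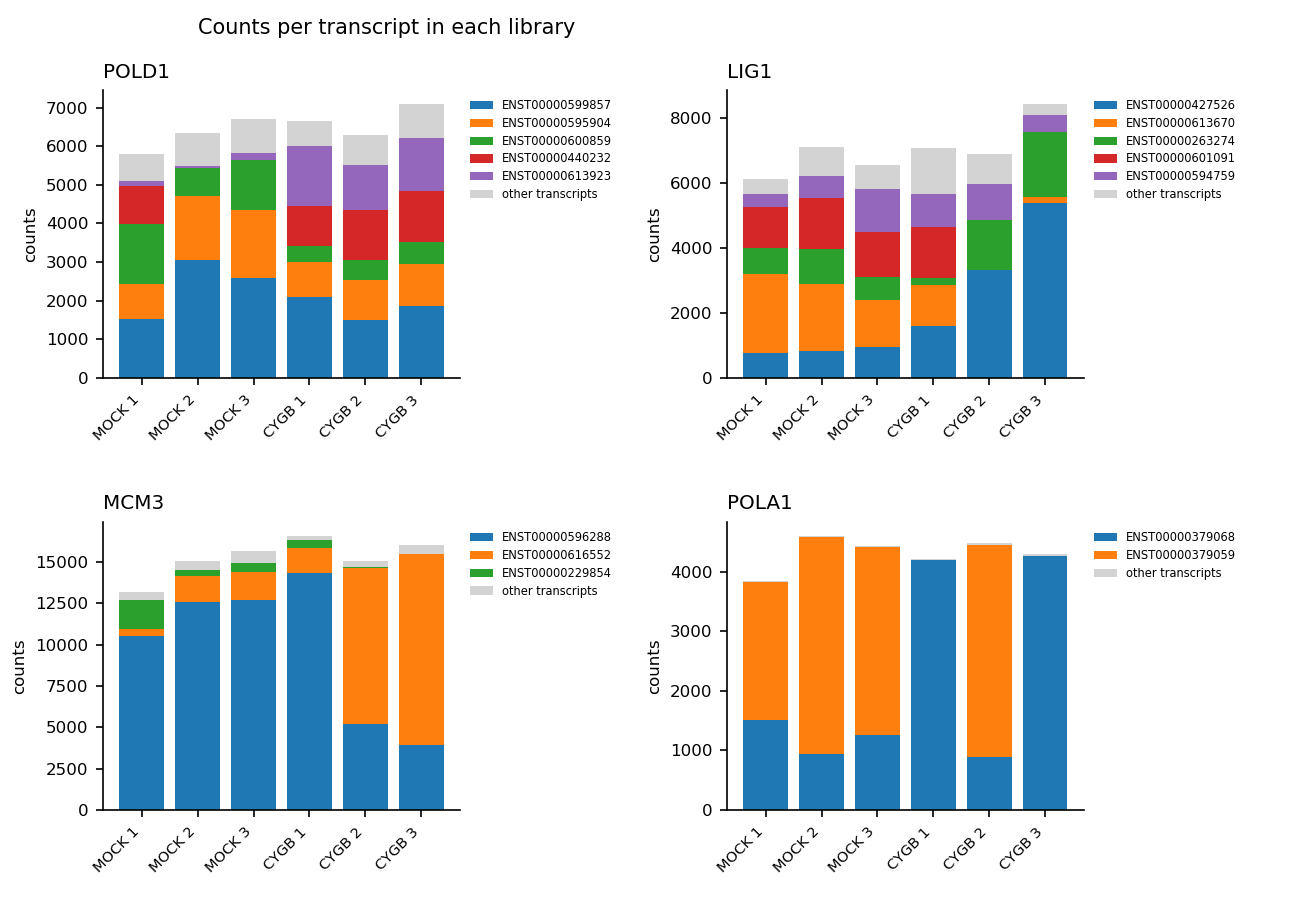
Counts per transcript in each library for POLD1, LIG1, MCM3 and POLA1, stacked to the gene sum, with the most abundant transcripts in colour and the rest in grey. The heights of the bars are similar in all libraries, while the colours shift, as for ENST00000613923 of POLD1 (purple), which is thin in MOCK and wide in CYGB, and for ENST00000379068 of POLA1 (blue), which fills CYGB 1 and CYGB 3.

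Over all 54 genes, the share of counts in the most abundant transcript had a median of 78.5%. The groups did not overlap in 5 of the 54 genes, CDC6, LIG1, MCM5, ORC1 and ORC2, each at the smallest p of 0.1 of the exact permutation test. This stands beside 7.29% of all genes tested and 9.77% of those with at least 2 listed transcripts, which is near the share of the list. In MCM5 the share was 58.9, 65.4 and 68.0% in MOCK 1 to 3 and 68.8, 68.6 and 74.0% in CYGB 1 to 3, and in ORC2 it ran from 92.2 to 95.5% in MOCK and from 95.9 to 97.5% in CYGB. In both, the lowest CYGB library lay less than 1 point above the highest MOCK library. In CDC6 the share was 99.7, 98.5 and 98.9% in MOCK 1 to 3 and 98.1, 98.4 and 97.9% in CYGB 1 to 3, and in ORC1, the large ATPase subunit of the complex, it was 86.0, 91.2 and 85.7% in MOCK 1 to 3 and 85.0, 83.4 and 83.3% in CYGB 1 to 3.

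Other genes that act with this machinery were taken from a written list of 78 genes, of which 77 were tested. There were 3 past the methods' threshold, 1 higher and 2 lower in CYGB, beside 0.28% of all genes higher and 0.285% lower, and none had an adjusted p under 0.05 in edgeR, with 5 at an unadjusted p under 0.05, beside 4.54% of all genes. DESeq2 gave 4 adjusted calls (DNA2, RBL2, RNASEH2C and TFDP1), beside 0.54% of all genes. The exact test of edgeR gave 2 (DNA2 and RBL2), beside 0.32%. RBL2, a relative of the retinoblastoma protein that represses E2F targets outside S phase, was the one that rose. Its counts were 285, 293 and 322 in MOCK 1 to 3 and 701, 1323 and 960 in CYGB 1 to 3, with groups that did not overlap, a log2 fold change of 1.71 (SE 0.25, 95% interval 1.09 to 2.32) and an adjusted p of 0.389 in edgeR. It passed the methods' threshold in all 13 alternatives run. RNASEH2C, a subunit of the nuclease that removes ribonucleotides from DNA, was lower, with counts of 1094, 1271 and 1372 in MOCK 1 to 3 and 762, 397 and 641 in CYGB 1 to 3 and a log2 fold change of -1.07 (SE 0.25, 95% interval -1.69 to -0.46). Of the 6 runs that left out a library it passed in 1, that without CYGB 1. DNA2, a nuclease and helicase that processes flaps, was lower too, with counts of 411, 163 and 145 in MOCK 1 to 3 and 60, 40 and 66 in CYGB 1 to 3 and a log2 fold change of -2.17 (SE 0.52, 95% interval -3.43 to -0.92). In DNA2 the MOCK 1 library stood apart from the other MOCK libraries, and the gene passed in the 3 runs without a MOCK library and in none of the 3 without a CYGB library. By size, TFDP1, the partner through which E2F factors bind DNA, had counts of 885, 375 and 1647 in MOCK 1 to 3 and 8911, 1987 and 8740 in CYGB 1 to 3 and a log2 fold change of 2.72 (SE 0.76, 95% interval 0.88 to 4.57). All CYGB libraries of TFDP1 lay above MOCK, but CYGB 2 stood nearer to MOCK than the others, and its adjusted p was 0.963 in edgeR. CDK1, the kinase of mitotic entry, had a log2 fold change of -0.95 (SE 0.36, 95% interval -1.82 to -0.07) with overlapping groups. The 77 genes had a median log2 fold change of 0.03, beside 0.08 for the 54 replication genes and -0.01 for all genes.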

How the data were processed

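RNA-seq libraries of MOCK and CYGB HCT116 cells (3 each, paired-end reads of 150 bases) were analysed from 1 table of raw counts per transcript that the authors deposited without normalization. The submitters' notes name HISAT2, HISAT, DESeq2 and hg19, while 440 of the 442 transcripts of the replication genes have their GRCh38 position in GENCODE 29, so coordinates are those of GRCh38. The counting tool and the division of reads among isoforms are not given in the sources used here. The table's other columns hold annotation, and columns of per-sample values without a sample numbered 0. Transcripts without a gene (18.6 to 19.5% of counts) entered neither library sizes nor tests.

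Counts were summed per gene, kept by filterByExpr (minimum count 10), scaled by TMM and tested with edgeR 4.0.16 (quasi-likelihood, limma 3.58.1, R 4.3.3), with Benjamini-Hochberg adjustment over 19987 genes or 66609 transcripts. The steps were run on simulated data with changes far larger than those of the replication gene sums, so that run does not bear on small changes. Shares of transcripts were compared with exact permutation tests. TPM used GENCODE 29 lengths. Alternatives were DESeq2 1.42.0, its size factors, edgeR's exact test, other count filters, a replicate block, each library left out, and the transcripts without a gene included. Libraries of a group differed by more than sampling noise (chi-square per gene 77.3 to 96.6), so each was 1 replicate.

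The genes, lists and tests were chosen with earlier results of these data known. Named with all values were genes past a threshold, the 6 largest rises and falls, the most abundant gene per role, genes with a called transcript, and the 4 most variable within a group. Other genes given with all values were chosen after their values were seen.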

Additional observations from a re-analysis of the deposited data

How the results depend on the processing

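In no alternative on counts summed per gene was a replication gene called at either threshold, and the summed level stayed between 1.08 and 1.10 times MOCK. Taken from its most abundant transcript, ENST00000427526, LIG1 had a log2 fold change of 2.01. That transcript passed the methods' threshold in edgeR, as described above. Leaving out each library gave a median log2 fold change of 0.0567 to 0.117. The leading transcript share did not overlap between groups in 8 to 16 genes. Groups of 2 and 3 libraries separate more easily than 3 and 3, and the share over all genes was not computed for these runs. Past the methods' threshold were 2 to 8 of 315 to 318 transcripts, beside 961 to 1209 of all 72632 to 73431 tested. So were 1 to 3 of the other genes, beside 124 to 177 of all 20728 to 20894 genes tested. Of the other genes, RBL2 passed in all 6 such runs, DNA2 in the 3 without a MOCK library and RNASEH2C in 1, and ESCO2, CDKN1A, CDK1 and TFDP1 passed in 1 such run each. DESeq2 called 5 transcripts at the methods' threshold and 2 after adjustment, and edgeR's exact test 1 after adjustment. Among the other genes DESeq2 gave 4 adjusted calls and the exact test 2. Log2 fold changes changed sign when a library was left out, with ranges of -0.104 to 0.431 for CDC25A, -0.0115 to 0.141 for CDC7, -0.0445 to 0.206 for CDK2, -0.355 to 0.285 for CDT1, -0.138 to 0.327 for GINS1, -0.119 to 0.0544 for GMNN, -0.504 to 0.0143 for ORC3, -0.0268 to 0.117 for ORC4, -0.0406 to 0.241 for ORC5, -0.0219 to 0.0979 for ORC6, -0.0418 to 0.0181 for POLA1, -0.0499 to 0.115 for POLA2, -0.0449 to 0.109 for POLE2, -0.662 to 0.316 for PRIM1, -0.107 to 0.0181 for PRIM2, -0.0339 to 0.0300 for RFC1, -0.0458 to 0.137 for RFC3, -0.045 to 0.133 for RFC4 and -0.158 to 0.0356 for RPA3. Taken from the most abundant transcript in place of the sum, they were -0.175 for CDC25A, 0.00139 for GMNN, -0.605 for MCM3, -0.157 for ORC6, 1.3 for POLA1, -0.0591 for POLA2, -0.386 for POLD1, -0.19 for POLE2, -0.881 for RFC1 and -0.181 for RRM2. With the replicate block CDT1 stood at 0.0255, and with a mean of at least 50 counts RFC1 stood at -0.00109. The cause was not tested. The other replication genes, and RBL2, RNASEH2C, DNA2, TFDP1 and CDK1, kept their sign in each alternative run.

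Libraries that share a replicate number did not deviate together (correlations of 0.0159, 0.00487 and 0.0253), so the number was used as a block only as an alternative. At the methods' threshold the replicate block gave 0 calls among the replication genes and 4 of the other genes, beside 78 of all 19987 genes tested. It called 2 of 299 transcripts (POLD1 ENST00000613923 and MCM3 ENST00000616552, with LIG1 ENST00000427526 lost), beside 291 of all 66609 tested. The median log2 fold change of the replication genes was 0.0852.

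With 3 libraries per group, exact permutation tests could not reach below p = 0.1. Single libraries set the values of MCM5, POLD3, DBF4, RFC5 and PRIM1, and CCNE2 had low and high libraries in both groups. A transcript with no stretch of the read length of its own cannot be separated well from the others of its gene. This held for both transcripts of the POLD1 comparison and of the MCM3 pair. In the POLA1 pair, ENST00000379068 had 86 such stretches of its own out of 5337, and ENST00000379059 had 40 out of 5291. Reads in the shared bases of overlapping genes, on opposite strands or on the same strand, cannot be told apart by strand.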

Other observations

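Beside the 2 transcripts past the methods' threshold, 6 transcripts of the replication genes had an unadjusted p under 0.05 in edgeR, and none of them had an adjusted p under 0.05. The POLD1 transcript ENST00000600859, annotated in GENCODE 29 as subject to nonsense-mediated decay, had 1567, 726 and 1293 counts in MOCK 1 to 3 and 403, 518 and 574 counts in CYGB 1 to 3, so its groups did not overlap in the direction opposite to ENST00000613923. ORC4 ENST00000540442 had 154, 196 and 118 counts in MOCK and 62, 64 and 103 in CYGB, while the ORC4 sum had a log2 fold change of 0.04. GINS3 ENST00000567143 had 39, 51 and 64 counts in MOCK and 77, 98 and 110 in CYGB, in the same direction as the GINS3 sum. The other 3 were MCM3 ENST00000616552, which is described above, and transcripts of MCM4 and MCM10 with at most 23 counts in any library.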
